A study of Oryza sativa Japonica Group with 8 samples.

Results

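The YABBY genes of rice (Oryza sativa Japonica Group) analysed here were DL and YABBY1 to YABBY6, with YABBY5 better known as TOB1. They were taken by their RAP gene identifiers from a table of FPKM values per library, which gave 7 genes of the 37859 identifiers in the table. FPKM is fragment abundance scaled to the length of the gene model and to the size of the library, so levels of different genes can be set side by side. RNA had been sequenced from meristems of cultivar Nipponbare, dissected at early stages of panicle development and labelled as enriched in PBMs and ePBM/Ams. There were 4 libraries of an osg1l2 single mutant and 4 of a wild type control. All plants grew first in long days (16 h light at 28°C, 8 h dark at 26°C) and then for 12 days in short days (12 h light, 12 h dark). The sources used here do not give the allele of osg1l2 or how many plants went into a library. The study's title places OsG1L1 and OsG1L2, of the plant-specific ALOG family of nuclear proteins, in the control of inflorescence branching, and the comparison asked what differs in the mutant.

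YABBY proteins are plant transcription factors with a zinc finger and a helix-loop-helix-like YABBY domain. They are known from the primordia of lateral organs, where in Arabidopsis they mark the abaxial (lower) side, and are not expressed in the central cells of a meristem. In rice several members are not confined to the abaxial side. The family falls into clades named after Arabidopsis genes. TOB1, YABBY4 and YABBY3 belong to the FIL clade, YABBY1, YABBY2 and YABBY6 to the YAB2 clade, and DL is the rice member of the CRC clade. The names need care because older symbols cross. The RefSeq gene table lists OsYAB3 as another name of YABBY5 (TOB1), OsYAB4 of YABBY3, OsYAB5 of YABBY6 and OsYAB7 of YABBY4. That table does not hold the RAP identifiers, but it names all 7 genes, and its chromosome was the one in the RAP identifier for each of the 7.

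All 7 genes were expressed in both genotypes. None passed the test of osg1l2 against wild type across all genes, which only 1.93% of the 18254 tested genes passed. TOB1 and YABBY4 were the most abundant, at 13.1 to 19.2 FPKM in every library, and together with YABBY3 they made up 67.3% to 77.8% of the summed FPKM of the 7 genes. DL had the largest difference on the log2 scale, a mean of 3.29 FPKM ± 0.941 (SD, n = 4) in osg1l2 against 2.52 FPKM ± 0.201 (SD, n = 4) in wild type. That difference was carried by 3 of the 4 osg1l2 libraries, and the other one had the lowest DL value of all 8. YABBY2 was the member with the largest difference in the other direction, 4.94 FPKM ± 0.495 (SD, n = 4) in osg1l2 against 6.04 FPKM ± 1.28 (SD, n = 4) in wild type.

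**Figure D1:**
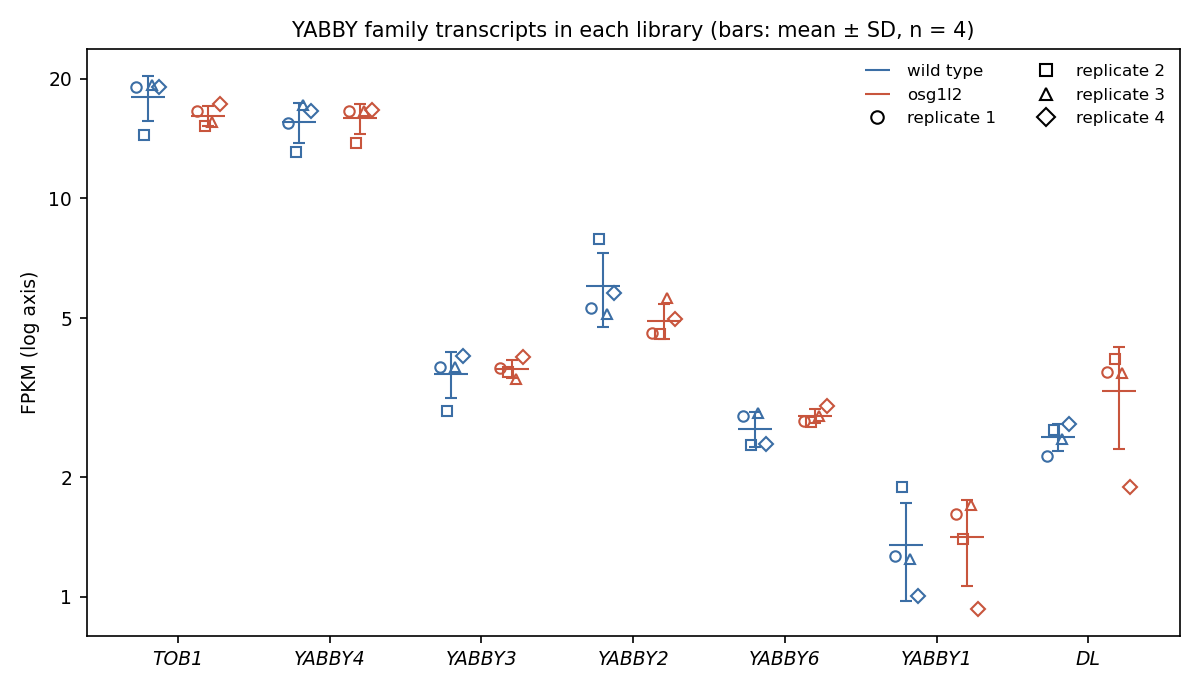
FPKM (log axis) of each of the 7 genes in each library, wild type in blue and osg1l2 in red, with the symbol showing the replicate and bars the mean ± SD (n = 4). TOB1 and YABBY4 lie between 13.1 and 19.2 FPKM in all 8 libraries, and the other members lie between 0.933 and 7.91 FPKM.

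Of the 7 members, 0 passed the test (limma on log2(FPKM + 1), adjusted p under 0.05), against 1.93% of the 18254 genes tested, which were those averaging 1 FPKM or more. At an unadjusted limma p under 0.05 the count was also 0 of 7, against 19.5% of all tested genes. The values of the genotypes overlapped for each of the 7, and 11.8% of all tested genes had values that did not overlap. At shares like these, 7 genes are too few for counts of 0 to set the family apart from all tested genes. All 7 members reached the level filter. Their log2 fold changes, osg1l2 over wild type, were above 0 for 5 and below 0 for 2, with a median of 0.04 against -0.04 over all tested genes. The FPKM sums of the libraries differed by genotype, with a mean of 217749 in osg1l2 and 226579 in wild type. With libraries scaled to equal sums the median over all tested genes was 0.010, and the estimate of each member rose too. The median size of the change was 0.08 among the members and 0.09 among all tested genes. In whole-tissue RNA of this kind, fewer cells that express a gene and less RNA per cell cannot be told apart.

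**Figure D2:**
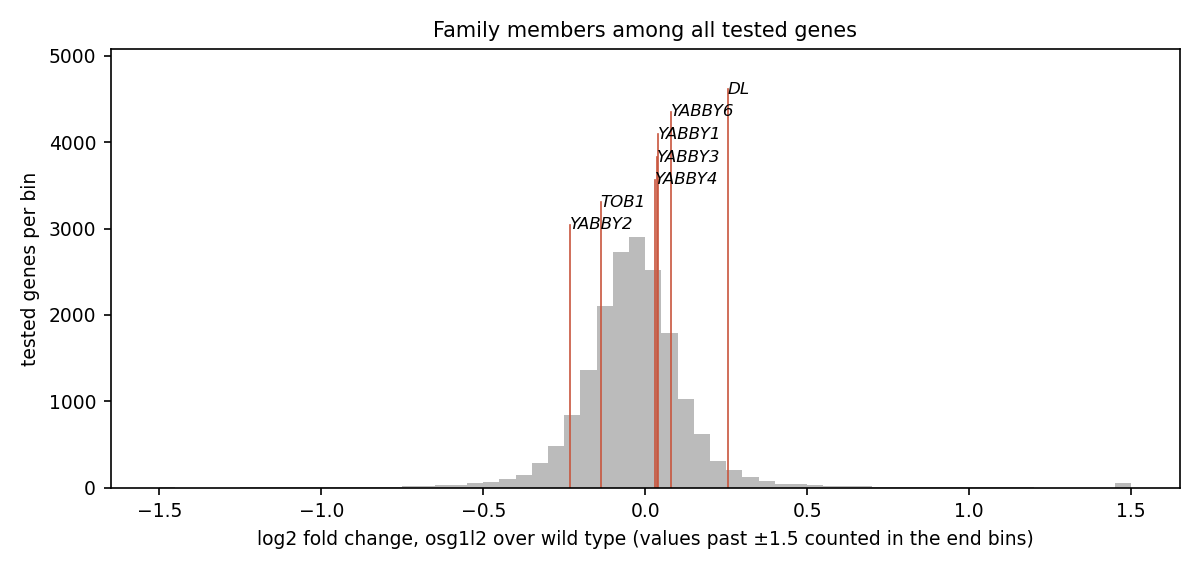
Number of tested genes by log2 fold change, osg1l2 over wild type, in bins of equal width (grey bars), with the 7 members as red lines. The members lie between -0.23 (YABBY2) and 0.26 (DL). Of the 18254 tested genes, 86.7% had a change smaller in size than YABBY2 and 89.2% one smaller than DL.

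DL (Os03g0215200, on chromosome 3 by its identifier) controls formation of the leaf midrib and carpel identity in rice. Its wild type libraries, replicates 1 to 4, gave 2.25, 2.62, 2.49 and 2.71 FPKM, and its osg1l2 libraries gave 3.66, 3.95, 3.64 and 1.89 FPKM. Thus osg1l2 replicates 1 to 3 lay above every wild type library, and osg1l2 replicate 4 lay below every one. In limma the log2 fold change came to 0.26 (SE 0.16), and the 95% interval ran from -0.09 to 0.61 (adjusted p = 0.40). An exact two-sided permutation test of the libraries gave p = 0.17, where the smallest p that 4 against 4 libraries can give is 0.0286. Without osg1l2 replicate 4 it came to 0.43 (SE 0.07), and DL passed the test (limma adjusted p = 0.023), as 1.31% of all genes did in that fit. Whether DL is called therefore rests on that library. Across all genes osg1l2 replicate 4 was the lowest osg1l2 library on the first principal component, at 13.2 against 15.4 to 22.6. The wild type libraries ran from -21.5 to -11.5 on that component, so osg1l2 replicate 4 was the osg1l2 library nearest to them. It was also the lowest osg1l2 library on the second, at -6.56 against -3.32 to 3.95. Other osg1l2 libraries stood further apart from the rest of their own genotype. Replicate 1 was at 22.6 on the first component, where the others ran from 13.2 to 16.2. Replicate 3 was at 3.95 on the second, where the others ran from -6.56 to -0.775. The library quality weight of osg1l2 replicate 4 in limma was 0.974, within the range of 0.810 to 1.20 of the osg1l2 libraries. The part of this in the DL values was not tested.

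With all 8 libraries the spread of DL was wide for its level. Its pooled SD within genotypes was 0.26 on the log2(FPKM + 1) scale, larger than that of 91.6% of the 4865 tested genes whose mean FPKM was within 1.5 times its own. DL was not alone in this. The same share was 87.8% for YABBY2, 80.3% for YABBY1, 79.8% for TOB1 and 78.6% for YABBY4. It was 56.1% for YABBY3 and 21.0% for YABBY6. The width for DL rests on osg1l2 replicate 4: without that library the standard error of the DL difference was 0.07 in place of 0.16. The wild type libraries ran from 2.25 to 2.71 FPKM, and osg1l2 replicates 1 to 3 from 3.64 to 3.95 FPKM. The authors' deposited table, which gives 1 pooled value per genotype, has DL at a log2 fold change of 0.49 with q = 0.0064. That is the ratio of the pooled values with nothing added, so it is not on the log2(FPKM + 1) scale of the limma estimate. The pooled values also differ from the mean FPKM. For DL they were 1.41 times the mean FPKM in wild type and 1.51 times in osg1l2. With 0.1 added in place of 1, the limma estimate for DL was 0.32 (limma adjusted p = 0.43). DL is the only member with q under 0.05 in the authors' deposited table, where 2.02% of the 37619 entries pass. Both sources rest on the same libraries, and how that q-value was computed is not stated in the material at hand.

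TOB1 (Os04g0536300, chromosome 4) acts from organ primordia on the maintenance of the spikelet meristem in rice. It was at 19.1, 14.4, 19.2 and 19.1 FPKM in wild type replicates 1 to 4 and at 16.6, 15.2, 15.5 and 17.3 FPKM in osg1l2 replicates 1 to 4. Wild type replicates 1, 3 and 4 lay close together above every osg1l2 library, and wild type replicate 2 lay below all of them. TOB1 had a log2 fold change of -0.14 (SE 0.09), and the 95% interval from -0.34 to 0.07 holds 0 (limma adjusted p = 0.45, exact permutation p = 0.23). Without wild type replicate 2 it was -0.23, with a limma adjusted p of 0.051 that missed the threshold, in a fit that called 4.55% of all genes. In the authors' deposited table TOB1 had a log2 fold change of -0.10 with q = 0.83.

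YABBY4 (Os02g0643200, chromosome 2), one of the closest paralogues of TOB1, stood at 15.4, 13.1, 17.2 and 16.6 FPKM in wild type and at 16.6, 13.8, 16.5 and 16.6 FPKM in osg1l2. Replicate 2 was the lowest library in both genotypes, and the remaining osg1l2 libraries lay within the range of the remaining wild type ones. Its log2 fold change of 0.03 had a 95% interval from -0.17 to 0.23 (limma adjusted p = 0.88). YABBY3 (Os10g0508300, chromosome 10), the other close paralogue, was lower, at 3.78, 2.93, 3.78 and 4.03 FPKM in wild type and 3.75, 3.68, 3.52 and 3.99 FPKM in osg1l2. For YABBY3 the estimate was 0.04 and the interval ran from -0.14 to 0.22 (limma adjusted p = 0.84). Wild type replicate 2 was the lowest wild type library for all 3 members of the FIL clade.

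YABBY2 (Os03g0650000, chromosome 3) is the rice counterpart of the sorghum seed shattering gene Sh1. Its wild type values were 5.30, 7.91, 5.14 and 5.79 FPKM and its osg1l2 values 4.59, 4.56, 5.62 and 4.99 FPKM. Wild type replicate 2 was by far the highest library, while osg1l2 replicate 3 lay among the other wild type values. For YABBY2 the estimate was -0.23 (SE 0.12), with an interval from -0.49 to 0.03 (limma adjusted p = 0.31, exact permutation p = 0.11). Without wild type replicate 2 it was -0.11 (limma adjusted p = 0.39). The authors' deposited table gives YABBY2 a log2 fold change of -0.33 with q = 0.0502.

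YABBY1 (Os07g0160100, chromosome 7) was the least abundant member in every library. It gave 1.26, 1.88, 1.24 and 1.01 FPKM in wild type and 1.61, 1.40, 1.70 and 0.933 FPKM in osg1l2, so that its highest value was in wild type replicate 2 and its lowest in osg1l2 replicate 4. Its estimate of 0.04 had an interval from -0.27 to 0.35 (limma adjusted p = 0.90). YABBY6 (Os12g0621100, chromosome 12) was the steadiest member, with 2.85, 2.41, 2.90 and 2.43 FPKM in wild type and 2.77, 2.75, 2.84 and 3.01 FPKM in osg1l2. Its highest library was 1.25 times its lowest. Its estimate of 0.08 had an interval from -0.07 to 0.23 (limma adjusted p = 0.54). For these 2 genes the authors' deposited table has q = 0.97 and q = 0.85, and for YABBY4 and YABBY3 it has q = 0.92 and q = 0.77.

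**Figure D3:**
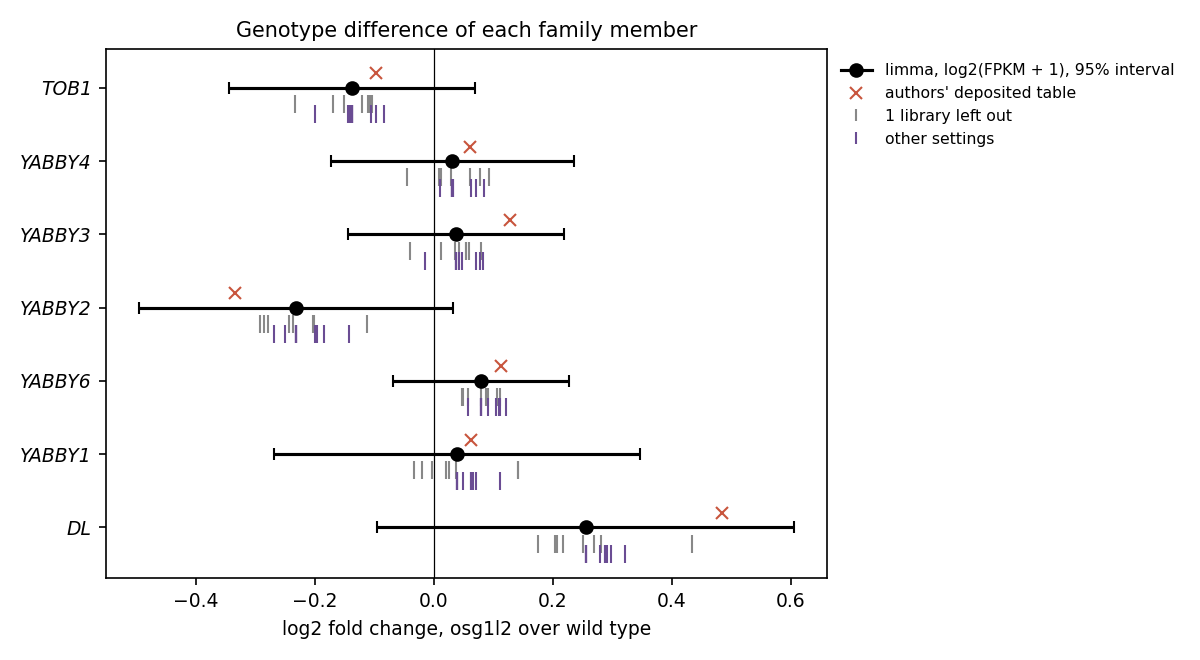
Log2 fold change, osg1l2 over wild type, of each member. Black points are the limma estimates on log2(FPKM + 1) with 95% intervals. Red crosses are the log2 ratios of pooled values, with nothing added, in the authors' deposited table. Grey ticks are fits with 1 library left out and purple ticks the other settings. Every interval holds 0, and the cross farthest to the right is DL at 0.49.

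The intervals bound the changes that these libraries leave possible on the log2(FPKM + 1) scale. For YABBY3, YABBY4 and YABBY6 they reach no further than -0.17 on one side and 0.23 on the other. For YABBY1 they reach -0.27 and 0.35. They are widest for DL, where the interval ran from -0.09 to 0.61.

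The order of levels was nearly the same in both genotypes. In wild type it ran, by mean, from TOB1 (18.0 FPKM) through YABBY4 (15.6), YABBY2 (6.04), YABBY3 (3.63), YABBY6 (2.65) and DL (2.52) to YABBY1 (1.35 FPKM). Of the 6 pairs of neighbours in that order, 2 had ranges that overlapped, TOB1 with YABBY4 and YABBY6 with DL, although TOB1 was the higher of its pair in 4 of 4 wild type libraries. In osg1l2 the ranges of TOB1 and YABBY4 overlapped again, with TOB1 the higher in 2 of 4 libraries. There DL came before YABBY6, and its range overlapped those of YABBY6 and of YABBY3, which it exceeded in 2 of 4 libraries. The step from YABBY4, at 15.9 FPKM in osg1l2, to YABBY2, at 4.94 FPKM, was the largest fall in FPKM between neighbours in either genotype. TOB1 lay above 82.0% to 86.7% of the tested genes of its library and YABBY1 above 1.61% to 15.7%.

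Ratios between neighbours in this order do not depend on the scaling between libraries, and these 3 were chosen after the values were seen and carry no test. TOB1 over YABBY4 was 1.24, 1.10, 1.12 and 1.15 in wild type replicates 1 to 4 and 0.999, 1.10, 0.938 and 1.04 in osg1l2 replicates 1 to 4. The lowest wild type ratio, 1.102 in replicate 2, was only just above the highest osg1l2 ratio, 1.101 in replicate 2. DL over YABBY6 was 0.789 to 1.12 in wild type, 1.28 to 1.44 in osg1l2 replicates 1 to 3 and 0.628 in osg1l2 replicate 4. YABBY2 over YABBY3 was 2.70 in wild type replicate 2, 1.36 to 1.44 in the other wild type libraries and 1.22 to 1.60 in osg1l2.

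**Figure D4:**
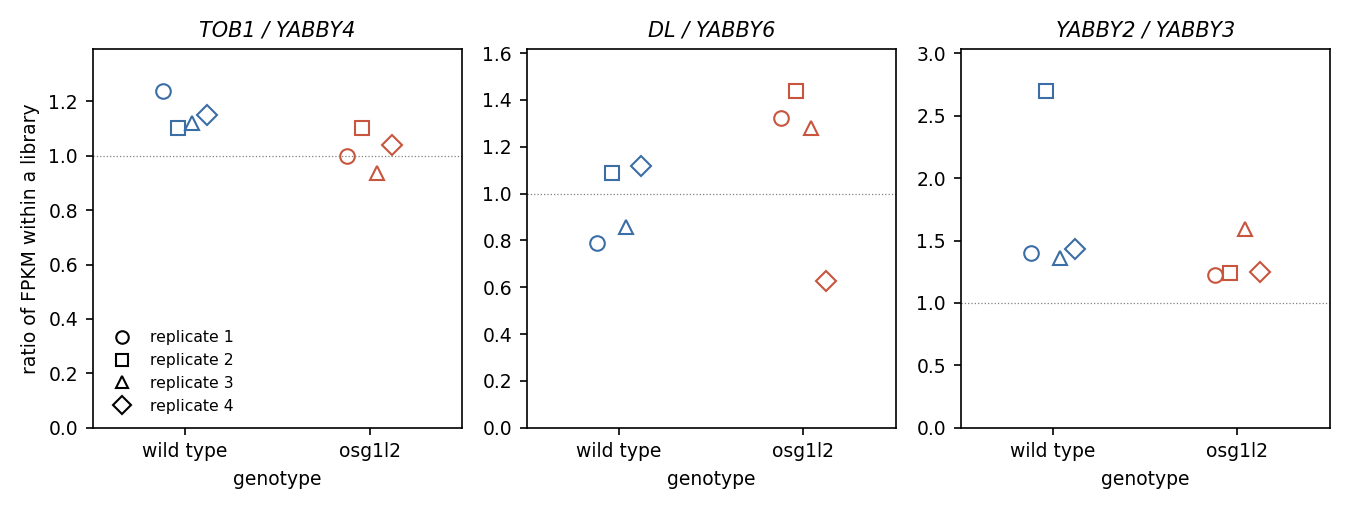
Ratio of the FPKM of pairs of members within each library, by genotype, with the symbol showing the replicate. Wild type replicate 2 stands apart for YABBY2 over YABBY3 at 2.70, and osg1l2 replicate 4 for DL over YABBY6 at 0.628.

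The 7 genes together summed to 50.0, 45.3, 52.0 and 51.6 FPKM in wild type and to 49.6, 45.4, 49.4 and 48.7 FPKM in osg1l2. The lowest library of each genotype, replicate 2, was at nearly the same sum. The FIL clade took 74.5% ± 4.84 (SD, n = 4) of that sum in wild type and 74.1% ± 2.71 (SD, n = 4) in osg1l2, and the YAB2 clade took 20.4% ± 4.39 and 19.1% ± 1.13. DL took 4.51% to 5.79% in wild type, 7.37% to 8.71% in osg1l2 replicates 1 to 3 and 3.88% in osg1l2 replicate 4.

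The members did not all rise or fall together from library to library. In wild type replicate 2 the FIL clade fell to 67.3% of the sum of the 7 genes. The YAB2 clade reached 26.9% there, against 17.9% to 18.8% in the other wild type libraries. In that library YABBY1 and YABBY2 had their highest wild type value, and TOB1, YABBY4, YABBY3 and YABBY6 their lowest. Over all genes too it was distant from the rest of its genotype, at 28.4 on the second principal component against -10.8 to -4.87, and had the lowest quality weight, 0.404. In osg1l2 replicate 4 the pattern had another make-up, with DL and YABBY1 at their lowest osg1l2 value and TOB1, YABBY4, YABBY3 and YABBY6 at their highest.

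**Figure D5:**
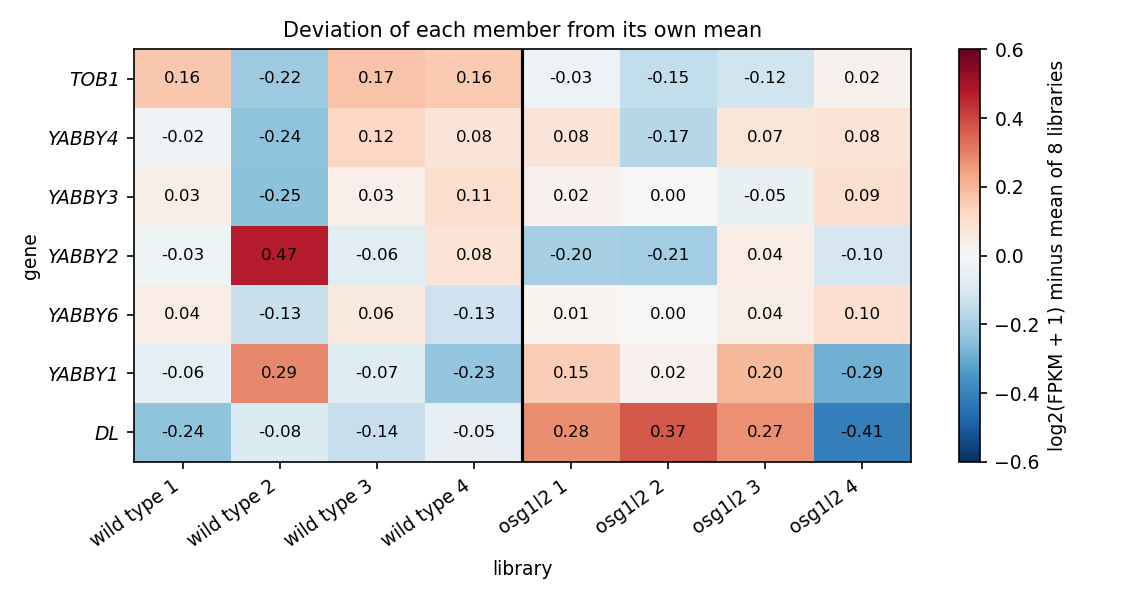
Difference of log2(FPKM + 1) from each gene's own mean over the 8 libraries (color), genes in rows and libraries in columns, with the vertical line dividing the genotypes. DL is at 0.27 to 0.37 in osg1l2 replicates 1 to 3 and at -0.41 in osg1l2 replicate 4, and YABBY2 is at 0.47 in wild type replicate 2.

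The genes most like DL and TOB1 in their pattern were sought by Pearson correlation of log2(FPKM + 1) over the 8 libraries, which share genotypes and scaling, so the values are descriptions. The closest to DL among 18253 others was Os04g0517350, with r = 0.95, a gene of 0.993 to 2.26 FPKM that was also lowest in osg1l2 replicate 4. The closest to TOB1 was Os11g0554200, with r = 0.98, at 2.35 FPKM in wild type replicate 2 and 3.11 to 3.23 FPKM in the other wild type libraries. The files give no name for either. Among the members themselves, the one most like TOB1 was YABBY3, at rank 1515 of the 18253, followed by YABBY4 at rank 2310. The one most like DL was YABBY1, at rank 814.

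Genes beside the members on the chromosome, taken by identifier order among tested genes, were looked at because neighbouring or overlapping models can share reads. Of these 14 neighbours, 0 passed the test (limma), which 1.93% of all tested genes passed. An unadjusted limma p under 0.05 was found for 1 of them, against 19.5% of all tested genes. That gene, the one after YABBY6, had a log2 fold change of 0.29 (limma adjusted p = 0.054). The log2 fold changes of the 14 neighbours ran from -0.20 to 0.29.

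The authors' pooled values, whose unit is not named, kept the order of the family in wild type. In osg1l2 they placed YABBY3 (7.60 in the authors' deposited table) above YABBY2 (6.84). Set against the mean FPKM, the wild type value in the authors' deposited table was 1.91 to 2.11 times as high for the FIL clade and 1.39 to 1.46 times for the other members. The osg1l2 value was 2.02 to 2.19 times as high for the FIL clade and 1.38 to 1.51 times for the other members. The sources used here do not give the reason, and levels of the members relative to each other therefore depend on which of the tables is read.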

How the data were processed

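The authors deposited FPKM values per gene and library, and a second table with 1 score per genotype (unit not named), their log2 ratio and a q-value, per the file headers. The submitters' processing notes name the build IRGSP-1.0. Aligner, quantification program and strandedness: not given in the sources used here. Antisense reads could therefore be counted with a gene. Low FPKM values include positive values too small for a single read, so whole reads were not recovered, depth is unknown and no count test was run. Library sums ran from 213940 to 231675 FPKM, and 17960 to 18334 genes reached 1 FPKM. The members and lists were chosen with earlier results of these data known.

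Genes averaging 1 FPKM or more across 8 libraries (18254) were compared on log2(FPKM + 1), a scale that understates changes of low genes, with limma 3.58.1 in R 4.3.3 (intensity trend, two-sided, Benjamini-Hochberg over all tested genes, called at 0.05). The procedure was tested on simulated data. Exact permutation tests used scipy 1.17.1, and figures matplotlib 3.10.9. The labels call replicates independent but do not say in what way, so p-values cover only the spread among libraries, which may be technical. The alternatives were other pseudocounts, filters, scalings, variance priors, library weights, a replicate block and leaving out each library. Genes named in the text are the 7 members and the gene most correlated with DL and with TOB1. Sums and shares of the family cover only the 7 members. Lists of further YABBY genes and of polarity, meristem, floral organ and leaf genes were fixed by symbol. They had no members that could be tested, because the RefSeq table (assembly ASM3414082v1) does not pair symbols with RAP identifiers. For the same reason OsG1L2 and tissue markers were not analysed here, so genotype and tissue labels were not checked. No sequences were used.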

Additional observations from a re-analysis of the deposited data

Results flagged for a closer look

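Of the 14 groups of 4 values (7 genes in 2 genotypes), 3 held a library far from the others, where the gap to the nearest value divided by the range exceeded the 95% critical value of Dixon's test. Chance gives about 1 in 20 such groups, and the groups share libraries. The share of all tested genes that this rule would flag is not given here, so the count is not read as particular to the family. DL in osg1l2 had replicate 4 at 1.89 FPKM (gap 0.850 of the range). TOB1 in wild type had replicate 2 at 14.4 FPKM (0.962). YABBY4 in osg1l2 had replicate 2 at 13.8 FPKM (0.963). In each of the 3 groups the distant library was the lowest one.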

How the results depend on the processing

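The number of members called was 0 in every setting except without osg1l2 replicate 4, where DL was called. Leaving out single libraries therefore gave 0 to 1. In the fits of 18254 genes, the number of all genes called ran from 152 (replicate block) to 1097 (library quality weights). At shares like these the members are too few for a repeated count of 0 to set the family apart from all tested genes. Of the 129 fits of single members under an alternative, 122 kept direction and side of the threshold, 1 passed it (DL) and 6 changed sign, all of them close to 0 and none called. YABBY3 was at -0.015 with library quality weights and ran from -0.039 to 0.079 over the left-out libraries, YABBY4 from -0.044 to 0.093 and YABBY1 from -0.033 to 0.14. The cause was not tested. DL ran from 0.18 to 0.43 (limma adjusted p 0.023 to 0.65), YABBY2 from -0.29 to -0.11, YABBY6 from 0.05 to 0.11 and TOB1 from -0.23 to -0.10 (limma adjusted p 0.051 to 0.65). Over the other settings TOB1 ran from -0.20 with library quality weights (limma adjusted p = 0.11) to -0.08 with all libraries scaled to equal sums. Under a filter at 5 FPKM, DL, YABBY1, YABBY3 and YABBY6 could not be fitted. Using the replicate number as a block leaves each log2 fold change as it was. With that block 0 members and 152 of the 18254 tested genes were called, and the limma adjusted p of DL was 0.47. The labels share only the number: libraries with the same replicate number had deviations that correlated, across genes, at 0.07, -0.02, -0.09 and -0.12 for replicates 1 to 4. With no depth in the files, its effect on precision could not be judged.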
